A study of Mus musculus with 12 samples.

Results

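The collagen genes are the genes whose symbol in the platform annotation is Col, digits, the letter a and digits. They numbered 42 of the 18194 genes that had a probe set with 1 symbol, and 82 probe sets carried their symbols. Each gene was represented by its brightest probe set, and 27 of the 42 had more than 1 probe set. Col6a6 and Col28a1 also fit the naming rule and were not analysed here. RNA of mouse spinal cord was hybridised to 12 Affymetrix arrays, 1 sample each, with 3 biological replicates in each of 4 groups. At day 15 Olig2cre/DA-Cat mice were set beside their wild-type littermates, and the same genotypes were sampled at day 4. Olig2cre drives Cre recombinase from the Olig2 gene, which is active in oligodendrocyte lineage cells and in motor neuron progenitors, and DA-Cat stands for dominant-active β-catenin, through which canonical Wnt signals reach their target genes. Mice carrying Cre without DA-Cat were not among the groups, so effects of the transgenes cannot be told apart. The labels call the days developmental stages and give the tissue as spinal cord or as its ventrolateral white matter. The description of every sample names an injection of 1% lysolecithin, which strips myelin, and the protocol names mice 8 to 10 weeks old and tissue taken unlesioned or 14 days after the lesion. Neither day 4 nor day 15 appears in the protocol, so what the days count from is not given. How many animals a sample holds is not stated, and p-values measure the spread between these samples.

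Collagens are secreted or membrane proteins built of several chains that wind into a triple helix. Fibrillar collagens form the fibres of connective tissue, type IV collagens form the sheet of basement membranes, and fibril-associated collagens sit on the surface of fibres. In the spinal cord fibrillar collagens come mainly from meningeal and perivascular fibroblasts, while type IV collagens line blood vessels and the surface of the cord.

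Levels below are log2 signals on each array, and differences are log2. A gene was called when its Benjamini-Hochberg adjusted p from limma, taken over all 18194 genes, was under 0.05, and "rose" and "fell" are used for called genes. Array medians lay between 6.14 and 6.19, and the median residual SD over genes was 0.11. Signals of different probe sets are not set against each other, since each probe set has its own response. As a check of the labelled tissue, 7 neuron markers averaged between 12.31 and 12.67 on the 12 arrays, and what share of each sample was grey matter was not tested. On 1 wild-type day 15 array, replicate 3, many collagens stood above both other arrays of the group. It was the highest of its group for 18 of the 23 collagens that fell with day in wild type. The calls and differences it moved most are given with and without it.

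Promoter sequence is shown for 2 pairs of collagen genes whose day differences are described below. Col1a2 and Col3a1 encode chains of the main interstitial fibres and fell with day in wild type, and Col4a6 and Col4a5 are neighbours on chromosome X transcribed in opposite directions. Each line gives the 250 bases before the transcription start from RefSeq (GRCm38.p6), 5′ to 3′ on the gene's strand. The windows are chr6:4505368-4505617 on the plus strand for Col1a2, chr1:45311288-45311537 on the plus strand for Col3a1, chrX:141474077-141474326 on the minus strand for Col4a6 and chrX:141475169-141475418 on the plus strand for Col4a5. Capitals mark matches, on either strand, to CCAAT (the CCAAT box), to GGGCGG (the GC box), to TATAAA (the TATA box) or to CTTTGAT (a core of sites bound by TCF and LEF factors, which work with β-catenin).
Col1a2: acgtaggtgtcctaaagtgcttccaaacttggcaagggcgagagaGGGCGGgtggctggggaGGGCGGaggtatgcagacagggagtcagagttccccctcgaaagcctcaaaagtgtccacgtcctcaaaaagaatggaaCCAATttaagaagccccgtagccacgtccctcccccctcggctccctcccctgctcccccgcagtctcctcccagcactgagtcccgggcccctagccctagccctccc
Col3a1: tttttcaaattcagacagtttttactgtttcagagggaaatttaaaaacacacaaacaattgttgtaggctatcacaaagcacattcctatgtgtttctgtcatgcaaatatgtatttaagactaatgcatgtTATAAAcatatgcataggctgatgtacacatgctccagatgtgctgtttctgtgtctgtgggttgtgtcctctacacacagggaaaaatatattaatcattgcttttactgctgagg
Col4a6: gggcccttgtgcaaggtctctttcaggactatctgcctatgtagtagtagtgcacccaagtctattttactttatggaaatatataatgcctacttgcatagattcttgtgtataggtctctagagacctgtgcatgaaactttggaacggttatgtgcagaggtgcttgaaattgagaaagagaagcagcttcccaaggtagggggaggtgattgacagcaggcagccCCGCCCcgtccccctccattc
Col4a5: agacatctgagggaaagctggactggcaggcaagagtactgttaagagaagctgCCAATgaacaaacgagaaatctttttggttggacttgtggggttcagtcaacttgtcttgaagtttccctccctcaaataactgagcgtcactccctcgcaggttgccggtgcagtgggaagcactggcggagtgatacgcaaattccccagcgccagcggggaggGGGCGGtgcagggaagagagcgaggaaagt
The Col1a2 window held 1 CCAAT and 2 GGGCGG matches and 62% G and C. That of Col3a1 held a single TATAAA and 35.2% G and C. The start of Col4a5 lay 1343 bases from that of Col4a6, and these windows held 1 GGGCGG match each, with a CCAAT in that of Col4a5 alone. RefSeq promoter windows were matched for 33 of the 42 genes, 36 windows in all. Those without a window were Col1a1, Col2a1, Col4a3, Col5a2, Col9a3, Col12a1, Col14a1, Col22a1 and Col26a1, so the counts do not cover them. CCAAT occurred in 13 of them (36.1%), against 33.8% of all 32851 windows of the table, and GGGCGG in 21 (58.3%), against 32.7%. TATAAA occurred in 5 (13.9%), against 12.4%, and CTTTGAT in 1, of Col9a2 (2.78%), against 3.21%. Matches of different motifs did not overlap in any of these windows. A match is a run of letters and not a known binding site.

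The first comparison asked how collagen levels differed between the days. In Olig2cre/DA-Cat cord, 20 of the 42 collagens fell and 4 rose at day 15 relative to day 4, where 26.3% of all genes fell, 21.8% rose and 48.1% were called in either direction. In wild-type cord 23 fell and 2 rose, where 23.6% of all genes fell, 21.3% rose and 44.9% were called in either direction. The median collagen difference was -0.44 in Olig2cre/DA-Cat and -0.41 in wild type, while the median over all genes was 0.0019 in Olig2cre/DA-Cat and -0.019 in wild type. The 3 arrays of each day did not overlap for all 20 collagens that fell in Olig2cre/DA-Cat and for 22 of the 23 that fell in wild type, the exception being Col4a4. Without overlap at all, called or not, were 23 lower and 4 higher collagens in Olig2cre/DA-Cat (30.1% and 26.1% of all genes) and 23 lower and 1 higher in wild type (28.1% and 25.3%). The day differences of the 2 genotypes share no array. Their calls are not independent, since the spread of each gene was estimated from the arrays of all groups together. Of the 42 collagens 20 fell in both genotypes, 2 rose in both and 15 were called in neither. The share of all genes called the same way in both genotypes was not counted, so these counts have no background beside them. In a bulk tissue, fewer cells of a type and less RNA per cell cannot be told apart.

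**Figure D1:**
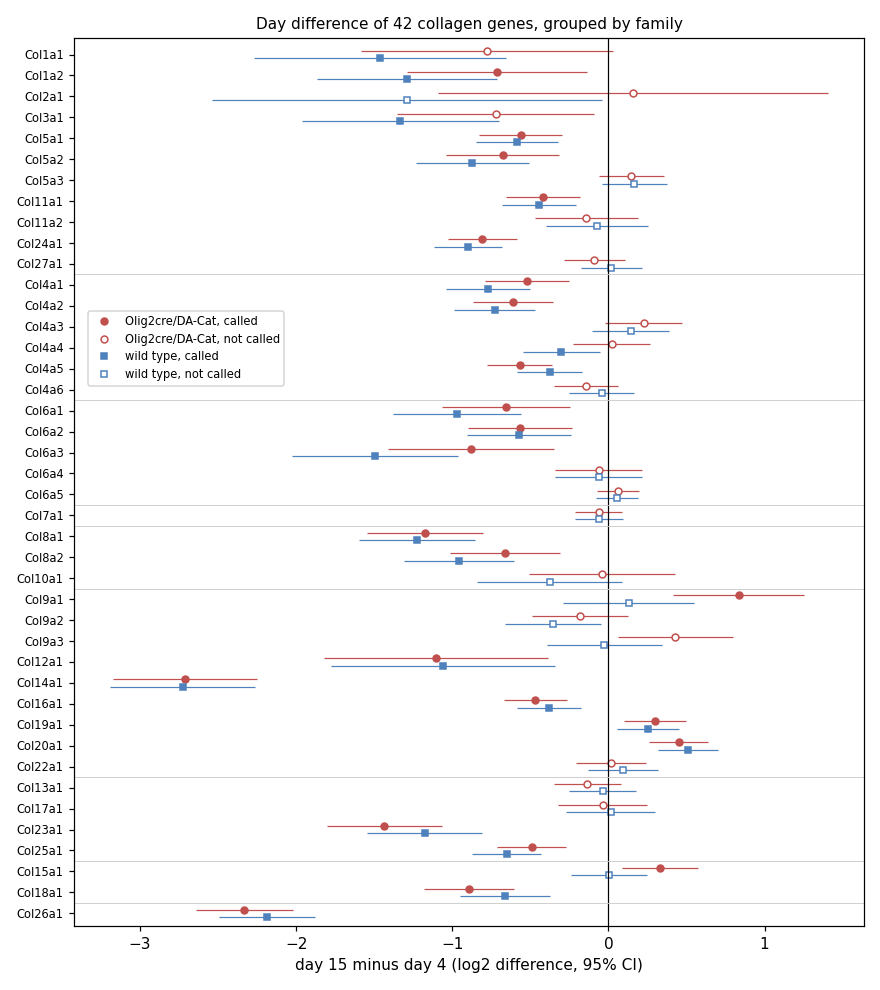
Day 15 minus day 4 differences (log2, horizontal axis) of the 42 collagen genes, grouped by family from fibrillar at the top to Col26a1 at the bottom, with 95% confidence intervals. Circles are Olig2cre/DA-Cat and squares wild type, filled where called; 20 filled circles and 23 filled squares lie left of 0, and Col14a1 and Col26a1 lie farthest left in both genotypes.

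Among the 11 fibrillar collagens 5 fell in Olig2cre/DA-Cat and 7 in wild type, and none rose. Col1a1 and Col1a2 encode the chains of type I collagen, the main fibre of connective tissue. In Olig2cre/DA-Cat, Col1a1 was at 9.31, 9.50 and 9.23 at day 15, against 9.79, 10.48 and 10.09 at day 4. In wild type it was at 7.96, 7.79 and 9.50 at day 15, against 9.59, 10.36 and 9.68 at day 4. The days did not overlap in either genotype, and the third wild-type array at day 15 lay well above the other two and close to the lowest day 4 array. The difference was -0.78 ± 0.37 in Olig2cre/DA-Cat (SE, adjusted p = 0.105) and -1.46 ± 0.37 in wild type (SE, adjusted p = 0.00605), a level 2.76-fold lower. Without the third wild-type array at day 15 the wild-type difference of Col1a1 was -2.01 (adjusted p = 3.18e-05). The second probe set of Col1a1 was at -0.96 in Olig2cre/DA-Cat and -1.64 in wild type.

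Col1a2 in Olig2cre/DA-Cat was at 11.86, 11.98 and 11.57 at day 15, against 12.31, 12.75 and 12.48 at day 4. In wild type it was at 10.54, 10.70 and 11.70 at day 15, against 11.96, 12.64 and 12.20 at day 4. It fell by 0.71 in Olig2cre/DA-Cat (adjusted p = 0.0415) and fell by 1.29 in wild type (adjusted p = 0.00151), with no overlap of the days in either. The Olig2cre/DA-Cat call of Col1a2 held in 12 of 18 alternative settings, with an adjusted p of 0.00459 to 0.134. It was lost with trend and robust estimation and without any 1 of Olig2cre/DA-Cat replicates 1 or 3 at day 15, Olig2cre/DA-Cat replicates 2 or 3 at day 4, or wild-type replicate 3 at day 4. Col3a1, the chain of type III collagen, which is mixed into type I fibres of soft tissues, was at 11.75, 11.91 and 11.16 in Olig2cre/DA-Cat at day 15, against 12.15, 12.59 and 12.24 at day 4. In wild type Col3a1 was at 10.35, 10.67 and 11.63 at day 15, against 11.95, 12.50 and 12.20 at day 4. It fell by 1.33 in wild type (adjusted p = 0.00227) and was at -0.72 in Olig2cre/DA-Cat (adjusted p = 0.0576), again without overlap. For both genes the third wild-type array at day 15 was the highest of its group. Without it the wild-type difference was -1.65 for Col1a2 (adjusted p = 3.57e-05) and -1.71 for Col3a1 (adjusted p = 9.05e-05). The second probe set of Col1a2 was at -0.88 in Olig2cre/DA-Cat and -1.52 in wild type, and that of Col3a1 at -1.27 in Olig2cre/DA-Cat and -2.04 in wild type.

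Type V and type XI collagens, which set the width of fibres, followed in part. Col5a2 in Olig2cre/DA-Cat was at 8.90, 8.90 and 8.56 at day 15, against 9.33, 9.69 and 9.38 at day 4, and fell by 0.68 (adjusted p = 0.00469). In wild type Col5a2 was at 8.08, 8.11 and 8.60 at day 15, against 8.87, 9.40 and 9.13 at day 4, and fell by 0.87 (adjusted p = 0.000934). Every day 15 array lay below every day 4 array of its genotype. Col5a1 fell by 0.56 in Olig2cre/DA-Cat and fell by 0.59 in wild type, and Col11a1 fell by 0.42 in Olig2cre/DA-Cat and fell by 0.44 in wild type. The size differed between probe sets of these genes. The others of Col5a1 were at -1.17 and -0.28 in Olig2cre/DA-Cat and at -1.43 and -0.21 in wild type, and the second of Col11a1 at -1.15 in Olig2cre/DA-Cat and -0.94 in wild type. Col24a1, a minor fibrillar chain, fell by 0.81 in Olig2cre/DA-Cat and fell by 0.90 in wild type. The other 4 fibrillar collagens were not called in either genotype: Col5a3 (0.15 in Olig2cre/DA-Cat and 0.17 in wild type), Col11a2 (-0.14 in Olig2cre/DA-Cat and -0.07 in wild type), Col27a1 (-0.09 in Olig2cre/DA-Cat and 0.02 in wild type) and Col2a1, which is described further below.

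**Figure D2:**
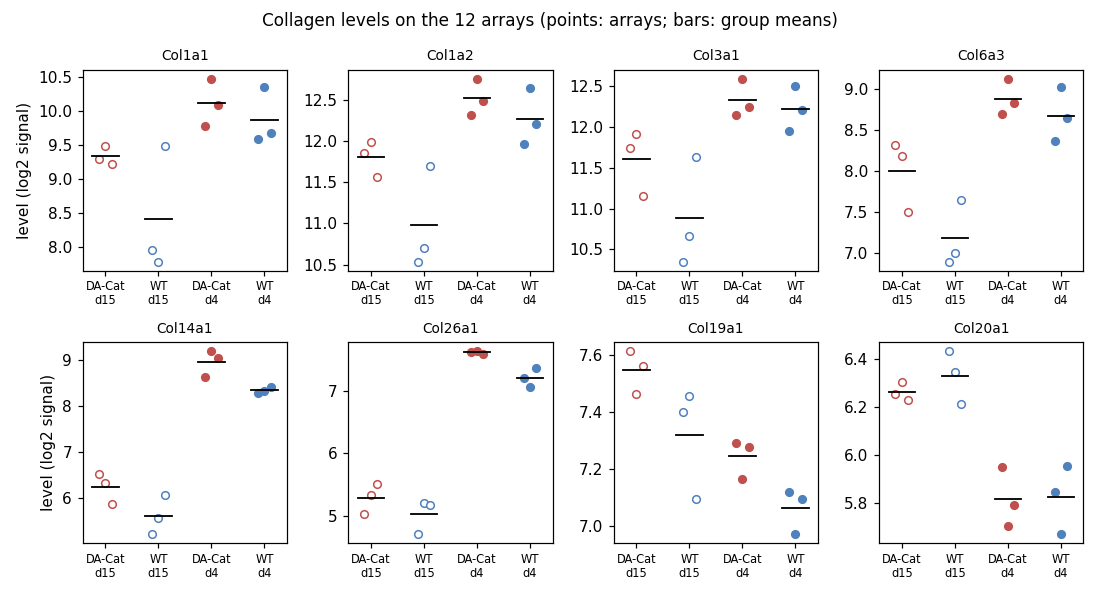
Log2 signal (vertical axis, each panel with its own range) of 8 collagen genes on the 12 arrays, by group; open circles are day 15 and filled circles day 4, red Olig2cre/DA-Cat and blue wild type, and bars are means of 3 arrays. Col14a1 and Col26a1 lie lower on every day 15 array than on any day 4 array, Col20a1 lies higher, and 1 wild-type day 15 array lies above the other two for Col1a1, Col1a2, Col3a1 and Col6a3.

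Of the 6 chains of type IV collagen, the network of basement membranes, 3 fell in Olig2cre/DA-Cat and 4 in wild type. Col4a1 and Col4a2 form the type IV network found in all basement membranes, vessels included. Col4a1 in Olig2cre/DA-Cat was at 9.74, 9.79 and 9.88 at day 15, against 10.34, 10.37 and 10.25 at day 4, and in wild type it was at 9.17, 9.44 and 9.79 at day 15, against 10.19, 10.37 and 10.15 at day 4. It fell by 0.52 in Olig2cre/DA-Cat (adjusted p = 0.00378) and fell by 0.77 in wild type (adjusted p = 0.000243), without overlap of the days. Col4a2, a neighbour of Col4a1 on the opposite strand, fell by 0.61 in Olig2cre/DA-Cat and fell by 0.73 in wild type. Col4a5 fell by 0.57 in Olig2cre/DA-Cat and fell by 0.38 in wild type. Its neighbour Col4a6 was not called, at -0.14 in Olig2cre/DA-Cat (adjusted p = 0.236) and -0.04 in wild type (adjusted p = 0.746). The second probe set of Col4a6, however, was at -0.35 in Olig2cre/DA-Cat and -0.39 in wild type, next to -0.29 in Olig2cre/DA-Cat and -0.37 in wild type on the second of Col4a5, so a different day effect in the neighbours was not shown. Both are chains found in the basement membranes of particular tissues, as are Col4a3 and Col4a4. Col4a3 was at 0.23 in Olig2cre/DA-Cat and 0.14 in wild type and was not called. Col4a4 fell by 0.30 in wild type (adjusted p = 0.0452) with overlapping days, and was at 0.02 in Olig2cre/DA-Cat (adjusted p = 0.905). The wild-type call of Col4a4 held in 7 of 17 alternative settings, with an adjusted p of 0.00997 to 0.189. It was lost with quantile normalization, with the mean of all probe sets and with the replicate number as a block. It was also lost without any 1 of wild-type replicates 1 or 2 at day 15, wild-type replicates 2 or 3 at day 4, or Olig2cre/DA-Cat replicates 1, 2 or 3 at day 4. Its other probe sets were at 0.03 and -0.07 in wild type.

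Of the 5 beaded-filament chains, which build the type VI microfibrils around cells, Col6a1, Col6a2 and Col6a3 fell in both genotypes. Col6a3 in Olig2cre/DA-Cat was at 8.32, 8.19 and 7.51 at day 15, against 8.70, 9.13 and 8.84 at day 4. In wild type it was at 6.90, 7.00 and 7.65 at day 15, against 8.37, 9.03 and 8.65 at day 4. The days did not overlap in either genotype, and Col6a3 fell by 0.88 in Olig2cre/DA-Cat (adjusted p = 0.00958) and fell by 1.50 in wild type (adjusted p = 0.000282). Without wild-type replicate 3 at day 15 the wild-type difference of Col6a3 was -1.73 (adjusted p = 0.000122). Col6a2 in Olig2cre/DA-Cat was at 9.08, 9.16 and 8.99 at day 15, against 9.56, 9.68 and 9.69 at day 4, and in wild type it was at 8.64, 8.95 and 9.15 at day 15, against 9.18, 9.85 and 9.43 at day 4. It fell by 0.57 in both genotypes, with adjusted p = 0.00853 in Olig2cre/DA-Cat and 0.00873 in wild type, and its highest wild-type day 15 array lay just below its lowest day 4 array. Col6a1 fell by 0.66 in Olig2cre/DA-Cat and fell by 0.97 in wild type, and its Olig2cre/DA-Cat call was lost without Olig2cre/DA-Cat replicate 3 at day 15 (adjusted p = 0.0543) or replicate 2 at day 4 (adjusted p = 0.0504). Col6a4 was at -0.06 in both genotypes and Col6a5 at 0.06 in both. Col6a5 and the transmembrane Col17a1 lay between 3.08 and 3.78 on all 12 arrays, the low end of the array scale, which limits what these probe sets could show. Col7a1, the chain of anchoring fibrils under epithelia, was at -0.06 in both genotypes and was not called.

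Of the hexagonal-network collagens Col8a1 and Col8a2, chains of the vessel wall and of the basement membrane of corneal endothelium, fell in both genotypes. Col8a1 fell by 1.18 in Olig2cre/DA-Cat and fell by 1.23 in wild type, and Col8a2 fell by 0.66 in Olig2cre/DA-Cat and fell by 0.95 in wild type. The other probe sets of Col8a1 were at -0.77 and -0.03 in Olig2cre/DA-Cat and at -0.69 and -0.43 in wild type. Col10a1, the collagen of hypertrophic cartilage, was not called, at -0.04 in Olig2cre/DA-Cat and -0.38 in wild type.

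The 9 fibril-associated collagens moved both ways: 3 fell and 3 rose in Olig2cre/DA-Cat, and 3 fell and 2 rose in wild type. Col14a1, which binds the surface of type I fibres, had the lowest day difference of all 42 collagens in both genotypes. It was at 6.52, 6.32 and 5.86 in Olig2cre/DA-Cat at day 15, against 8.62, 9.19 and 9.03 at day 4. In wild type Col14a1 was at 5.22, 5.57 and 6.06 at day 15, against 8.28, 8.32 and 8.42 at day 4. Every day 15 array lay far below every day 4 array. Col14a1 fell by 2.71 in Olig2cre/DA-Cat (adjusted p = 5.21e-07) and fell by 2.73 in wild type (adjusted p = 6.37e-07), 6.56-fold lower in Olig2cre/DA-Cat and 6.62-fold lower in wild type. Its second probe set was at -2.07 in Olig2cre/DA-Cat and -2.45 in wild type, and the third, near the low end of the scale, at -0.11 in Olig2cre/DA-Cat and -0.44 in wild type. Col12a1, a relative of Col14a1 on fibres of tendon and other dense tissue, fell by 1.10 in Olig2cre/DA-Cat and fell by 1.06 in wild type. Its other 3 probe sets, which lay lower on the scale, were at -0.23 to 0.14 in Olig2cre/DA-Cat and at -0.35 to -0.02 in wild type. The wild-type call of Col12a1 held in 14 of 18 alternative settings, with an adjusted p of up to 0.0848, and was lost with trend and robust estimation and without wild-type replicates 1 or 2 at day 15 or replicate 2 at day 4. Its Olig2cre/DA-Cat call was lost without Olig2cre/DA-Cat replicate 3 at day 15 (adjusted p = 0.065). Col16a1 fell by 0.47 in Olig2cre/DA-Cat and fell by 0.38 in wild type.

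The collagens that rose in both genotypes were the fibril-associated Col19a1 and Col20a1. Col19a1 is made by subsets of interneurons in the brain and is needed there for synapse formation. It was at 7.61, 7.46 and 7.56 in Olig2cre/DA-Cat at day 15, against 7.29, 7.17 and 7.28 at day 4. In wild type Col19a1 was at 7.40, 7.46 and 7.09 at day 15, against 7.12, 6.97 and 7.09 at day 4, so 1 day 15 array lay within the day 4 range. It rose by 0.30 in Olig2cre/DA-Cat (adjusted p = 0.0156) and by 0.26 in wild type (adjusted p = 0.0369). The wild-type call of Col19a1 held in 14 of 18 alternative settings, with an adjusted p of up to 0.152, and was lost without wild-type replicates 1 or 2 at day 15 or replicates 2 or 3 at day 4. The Olig2cre/DA-Cat call was lost without Olig2cre/DA-Cat replicate 1 at day 15 or replicate 2 at day 4 (adjusted p up to 0.0627). Its other probe sets were at 0.32 and 0.08 in Olig2cre/DA-Cat and at 0.38 and 0.01 in wild type. Col20a1 was at 6.26, 6.31 and 6.23 in Olig2cre/DA-Cat at day 15, against 5.95, 5.70 and 5.79 at day 4. In wild type Col20a1 was at 6.43, 6.35 and 6.21 at day 15, against 5.85, 5.67 and 5.95 at day 4. The days did not overlap for Col20a1, which rose by 0.45 in Olig2cre/DA-Cat (adjusted p = 0.000957) and by 0.51 in wild type (adjusted p = 0.000434). Its other 3 probe sets were at 0.38 to 0.87 in Olig2cre/DA-Cat and at 0.31 to 0.90 in wild type.

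Type IX collagen, a heterotrimer of Col9a1, Col9a2 and Col9a3 known from cartilage, had 1 chain called, in 1 genotype. Col9a1 rose by 0.84 in Olig2cre/DA-Cat (adjusted p = 0.00308), where it was at 8.43, 8.56 and 8.42 at day 15, against 7.55, 7.64 and 7.72 at day 4. In wild type Col9a1 was at 7.92, 8.24 and 8.28 at day 15, against 7.64, 8.60 and 7.82 at day 4, which gave 0.13 (adjusted p = 0.633). The day 4 spread in wild type came from its second replicate. The second probe set of Col9a1 was at 0.56 in Olig2cre/DA-Cat and -0.04 in wild type. Col9a3 in Olig2cre/DA-Cat was at 9.02, 9.55 and 9.67 at day 15, against 8.93, 9.04 and 8.98 at day 4, which gave 0.43 (adjusted p = 0.0548). In wild type Col9a3 was at 9.10, 9.55 and 9.72 at day 15, against 9.36, 9.56 and 9.53 at day 4, which gave -0.03 (adjusted p = 0.923). Days overlapped for Col9a3 in both genotypes, and Col9a2 was at -0.18 in Olig2cre/DA-Cat and -0.36 in wild type without being called. Col22a1, found at tissue junctions, was at 0.02 in Olig2cre/DA-Cat and 0.09 in wild type and was not called, and its other probe sets were at -0.04 and -0.51 in Olig2cre/DA-Cat and at -0.22 and -0.47 in wild type.

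Of the 4 transmembrane collagens, which cross the cell membrane and can be shed, Col23a1 and Col25a1 fell in both genotypes. Col23a1 fell by 1.43 in Olig2cre/DA-Cat and fell by 1.18 in wild type, and its 3 probe sets were all lower at day 15. Col25a1, which neurons make and which motor neurons need to innervate muscle, fell by 0.49 in Olig2cre/DA-Cat and fell by 0.65 in wild type, but its second probe set was at 0.07 in Olig2cre/DA-Cat and -0.04 in wild type. Col13a1, a part of the neuromuscular junction, and Col17a1, of skin hemidesmosomes, were not called, with Col13a1 at -0.14 in Olig2cre/DA-Cat and -0.04 in wild type. Of the multiplexins, collagens of basement membranes, Col18a1, the source of endostatin, fell by 0.89 in Olig2cre/DA-Cat and fell by 0.66 in wild type. Col15a1 rose by 0.33 in Olig2cre/DA-Cat (adjusted p = 0.0264) and was at 0.0040 in wild type (adjusted p = 0.982). The Olig2cre/DA-Cat call of Col15a1 held in 14 of 18 alternative settings, with an adjusted p of up to 0.0806, and was lost without Olig2cre/DA-Cat replicates 2 or 3 at day 15 or replicates 1 or 3 at day 4.

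Col26a1, which belongs to none of these families and is known from testis and ovary, had the second lowest day difference of the 42 in both genotypes. It was at 5.03, 5.33 and 5.51 in Olig2cre/DA-Cat at day 15, against 7.63, 7.64 and 7.59 at day 4. In wild type Col26a1 was at 4.70, 5.21 and 5.17 at day 15, against 7.20, 7.06 and 7.37 at day 4. No day 15 array came near the day 4 arrays. It fell by 2.33 in Olig2cre/DA-Cat (adjusted p = 7.32e-08) and fell by 2.19 in wild type (adjusted p = 1.67e-07), 5.04-fold lower in Olig2cre/DA-Cat and 4.55-fold lower in wild type. Its second probe set, between 3.30 and 3.41 in all groups, was at 0.03 in Olig2cre/DA-Cat and -0.11 in wild type. Over the 27 collagens with several probe sets, the probe sets of a gene had the same sign for 20 in Olig2cre/DA-Cat and for 20 in wild type.

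Markers of the fibroblasts that make interstitial collagen moved in part with these genes. The mean of 12 meninges and fibroblast markers was 8.19, 8.18 and 7.63 in Olig2cre/DA-Cat at day 15, against 8.47, 8.58 and 8.63 at day 4. In wild type it was 7.21, 7.38 and 8.12 at day 15, against 8.11, 8.53 and 8.43 at day 4. Of the 12 markers 5 fell and 1, Ogn, rose in Olig2cre/DA-Cat, where 26.3% of all genes fell and 21.8% rose. In wild type 7 fell, where 23.6% of all genes fell. The other markers were not called. The third wild-type array at day 15 was the highest of its group for these markers as it was for Col1a1, Col1a2 and Col3a1, and the third Olig2cre/DA-Cat array at day 15 was the lowest of its group for both. Endothelial markers averaged 8.16 to 8.34 in Olig2cre/DA-Cat and 8.05 to 8.18 in wild type at day 15, against 8.06 to 8.07 in Olig2cre/DA-Cat and 8.00 to 8.08 in wild type at day 4. Of these 8 markers 4 rose and 2 fell in Olig2cre/DA-Cat, and 3 rose and 3 fell in wild type. Pericyte and smooth muscle markers averaged 7.79 to 8.37 over the 12 arrays. The part of these cells in the collagen differences was not tested.

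**Figure D3:**
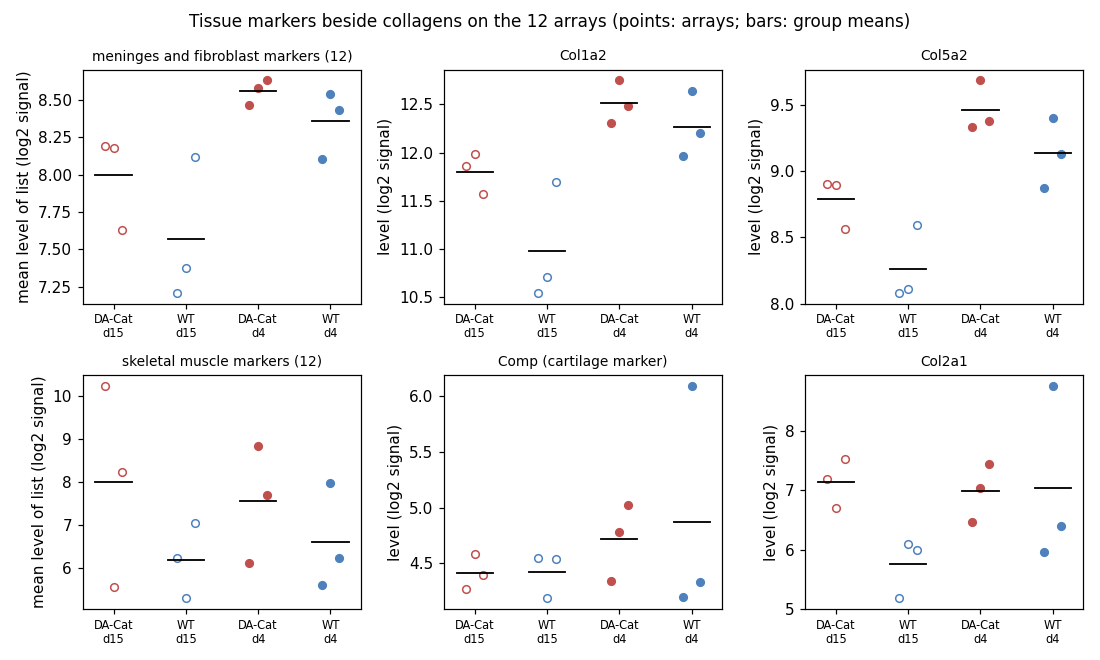
Mean log2 signal of 12 meninges and fibroblast markers and of 12 skeletal muscle markers (left), and log2 signals of Col1a2, Col5a2, Comp and Col2a1, on the 12 arrays by group; open circles are day 15, filled circles day 4, and bars means of 3 arrays. The wild-type day 15 array that is highest for Col1a2 and Col5a2 is also highest for the fibroblast markers (8.12), and the wild-type day 4 array that is highest for Col2a1 (8.76) is also highest for Comp (6.09).

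Genes that process, degrade or bind collagen were counted in the same comparison. Over all genes 21.8% rose and 26.3% fell in Olig2cre/DA-Cat, and 21.3% rose and 23.6% fell in wild type. Of 27 measured genes of collagen synthesis and cross-linking 6 rose and 8 fell in Olig2cre/DA-Cat, and 6 rose and 7 fell in wild type. The counts of this list lie near the shares over all genes. P4ha1, a catalytic subunit of the prolyl hydroxylase that stabilises the triple helix, rose by 0.88 in Olig2cre/DA-Cat and by 0.73 in wild type. Plod1, a lysyl hydroxylase, rose by 0.76 in Olig2cre/DA-Cat and by 0.95 in wild type, and Fkbp14, a prolyl isomerase, rose by 0.40 in Olig2cre/DA-Cat and by 0.47 in wild type. Among those that fell, Colgalt1, which adds galactose to hydroxylysine, fell by 0.63 in Olig2cre/DA-Cat and fell by 0.47 in wild type. Crtap, a partner of a prolyl hydroxylase, fell by 0.75 in Olig2cre/DA-Cat and fell by 0.81 in wild type.

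Of 13 measured genes of collagen breakdown and uptake 3 rose and 6 fell in Olig2cre/DA-Cat, and 2 rose and 7 fell in wild type. Mmp14, a membrane-bound collagenase, fell by 1.37 in Olig2cre/DA-Cat and fell by 1.35 in wild type. Timp1, an inhibitor of matrix metalloproteinases, fell by 0.75 in Olig2cre/DA-Cat and fell by 0.85 in wild type, whereas Timp4, another such inhibitor, rose by 0.71 in Olig2cre/DA-Cat and by 0.27 in wild type. Mrc2, the receptor that takes up collagen fragments, fell by 0.65 in Olig2cre/DA-Cat and fell by 0.67 in wild type. Of 19 measured receptors and fibril-binding proteoglycans 4 rose and 1 fell in Olig2cre/DA-Cat, and 3 rose and 2 fell in wild type. Sparc, a collagen-binding matrix protein, rose by 0.92 in Olig2cre/DA-Cat and by 0.74 in wild type, and the proteoglycan Bgn fell by 0.64 in Olig2cre/DA-Cat and fell by 1.01 in wild type.

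The second comparison asked how the genotype changed collagen levels at each day. No collagen was called between Olig2cre/DA-Cat and wild type at day 15, where 2.93% of all genes were called, or at day 4, where 3.12% were called. At an unadjusted p under 0.05 there were 15 collagens at day 15 (35.7%, against 16.9% of all genes) and 6 at day 4 (14.3%, against 20.6%). The median difference was 0.18 at day 15 and 0.11 at day 4, against 0.017 over all genes at day 15 and 0.029 at day 4, and 31 of 42 collagens had a positive difference at each day, against 55.3% of all genes at day 15 and 58.1% at day 4. Without overlap of the groups were 6 higher and 0 lower collagens at day 15 (10.6% and 9.69% of all genes), and 8 higher and 2 lower at day 4 (18.8% and 10.3%). The 95% interval of a difference reached a median of 0.281 to either side, so smaller differences could not be told from 0 for a typical collagen. These intervals are not adjusted for the number of genes, and a call needed more. Differences of 0.43 for Col4a4 at day 15 and -0.50 for Col9a3 at day 4 were not called.

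**Figure D4:**
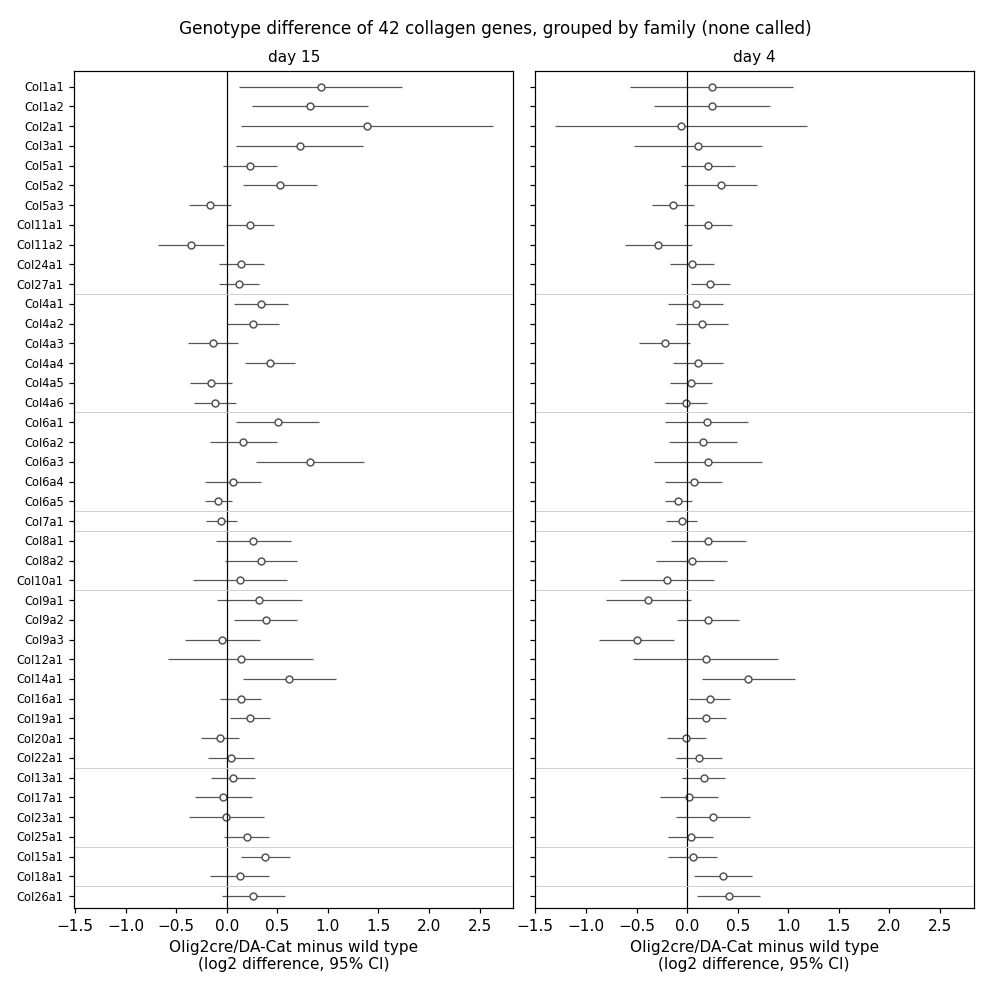
Olig2cre/DA-Cat minus wild type differences (log2, horizontal axis) of the 42 collagen genes at day 15 (left) and day 4 (right), grouped by family from fibrillar at the top to Col26a1 at the bottom, with 95% confidence intervals. All circles are open because none was called at either day; the intervals of the fibrillar collagens Col1a1, Col1a2, Col2a1 and Col3a1 are wide at both days.

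On average over both days 2 of the 42 collagens were called, both higher in Olig2cre/DA-Cat, where 4.19% of all genes were called higher and 8.31% in either direction. At an unadjusted p under 0.05 there were 22 (52.4%, against 25.8% of all genes). Col14a1 was at 6.52, 6.32 and 5.86 in Olig2cre/DA-Cat, against 5.22, 5.57 and 6.06 in wild type, at day 15. At day 4 it was at 8.62, 9.19 and 9.03 in Olig2cre/DA-Cat, against 8.28, 8.32 and 8.42 in wild type. The genotypes overlapped at day 15 in 1 array each and did not overlap at day 4. Col14a1 rose by 0.61 ± 0.15 on average (SE, adjusted p = 0.0277), with 0.62 at day 15 (adjusted p = 0.158) and 0.61 at day 4 (adjusted p = 0.138). Its adjusted p lay between 0.00817 and 0.0694 over 18 alternative settings, in 11 of which it was called. It was lost without any 1 of Olig2cre/DA-Cat replicate 1 at day 15, Olig2cre/DA-Cat replicates 2 or 3 at day 4, wild-type replicates 1 or 2 at day 15, or wild-type replicates 1 or 2 at day 4.

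Col5a2 rose by 0.43 ± 0.12 on average over both days in Olig2cre/DA-Cat (SE, adjusted p = 0.0458). Its values were 8.90, 8.90 and 8.56 in Olig2cre/DA-Cat, against 8.08, 8.11 and 8.60 in wild type, at day 15, and 9.33, 9.69 and 9.38 in Olig2cre/DA-Cat, against 8.87, 9.40 and 9.13 in wild type, at day 4. The genotypes overlapped at both days, at day 15 through the third wild-type array, the highest of its group, and the third Olig2cre/DA-Cat array, the lowest of its group. The difference was 0.52 at day 15 and 0.33 at day 4. The adjusted p of Col5a2 lay between 0.0159 and 0.106 over 18 alternative settings, in 6 of which it was called. With 1 array left out it held only where that array was Olig2cre/DA-Cat replicate 3 at day 15, wild-type replicate 3 at day 15 or wild-type replicate 2 at day 4. Its second probe set was higher in Olig2cre/DA-Cat by 0.32 at day 15 and by 0.20 at day 4. The count of called collagens in this average was 0 without wild-type replicate 1 or replicate 2 at day 15, without wild-type replicate 1 at day 4, or without Olig2cre/DA-Cat replicate 2 or replicate 3 at day 4. In these fits 4.77% to 5.82% of all genes were called. The count was 10 without wild-type replicate 3 at day 15 (23.8%, against 7.79% of all genes) and 5 without Olig2cre/DA-Cat replicate 2 at day 15 (11.9%, against 12.4%). It was 4 without Olig2cre/DA-Cat replicate 3 at day 15 (9.52%, against 4.98%) or without wild-type replicate 2 at day 4 (9.52%, against 5.38%).

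The interstitial collagens had wide intervals at day 15 and 1 wild-type array stood apart in them. Col1a1 was at 9.31, 9.50 and 9.23 in Olig2cre/DA-Cat at day 15, against 7.96, 7.79 and 9.50 in wild type, a difference of 0.93 ± 0.37 (SE, adjusted p = 0.226). The first and second wild-type arrays lay below all Olig2cre/DA-Cat arrays, and the third lay level with the highest of them. Col1a2 differed by 0.82 (adjusted p = 0.132), Col3a1 by 0.72 (adjusted p = 0.232) and Col6a3 by 0.82 (adjusted p = 0.105), and in each the same array was the highest of the wild-type group. Without wild-type replicate 3 at day 15, 8 collagens were called (19.0%, against 2.5% of all genes), all higher in Olig2cre/DA-Cat: Col1a1, Col1a2, Col3a1, Col4a1, Col4a2, Col5a2, Col6a3 and Col15a1. Col1a1 then differed by 1.47 (adjusted p = 0.00754), Col1a2 by 1.18 (adjusted p = 0.00912), Col3a1 by 1.10 (adjusted p = 0.028) and Col6a3 by 1.05 (adjusted p = 0.0421). The fibroblast markers averaged 8.19, 8.18 and 7.63 in Olig2cre/DA-Cat and 7.21, 7.38 and 8.12 in wild type at day 15, and none of the 12 was called. The 4 measured Schwann cell markers, which mark peripheral nerve and roots, averaged 8.05, 8.17 and 8.07 in Olig2cre/DA-Cat and 7.45, 7.37 and 8.05 in wild type at day 15, with 1 called higher. Cdh19 of this list went the other way, at 8.49, 7.68 and 7.96 in Olig2cre/DA-Cat, against 8.62, 8.48 and 8.53 in wild type. For the means of both lists the third wild-type array was the highest of its group, and the part of these cells in the collagen differences was not tested. Nothing in the labels sets this array apart, so the values with it stand as the result.

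**Figure D5:**
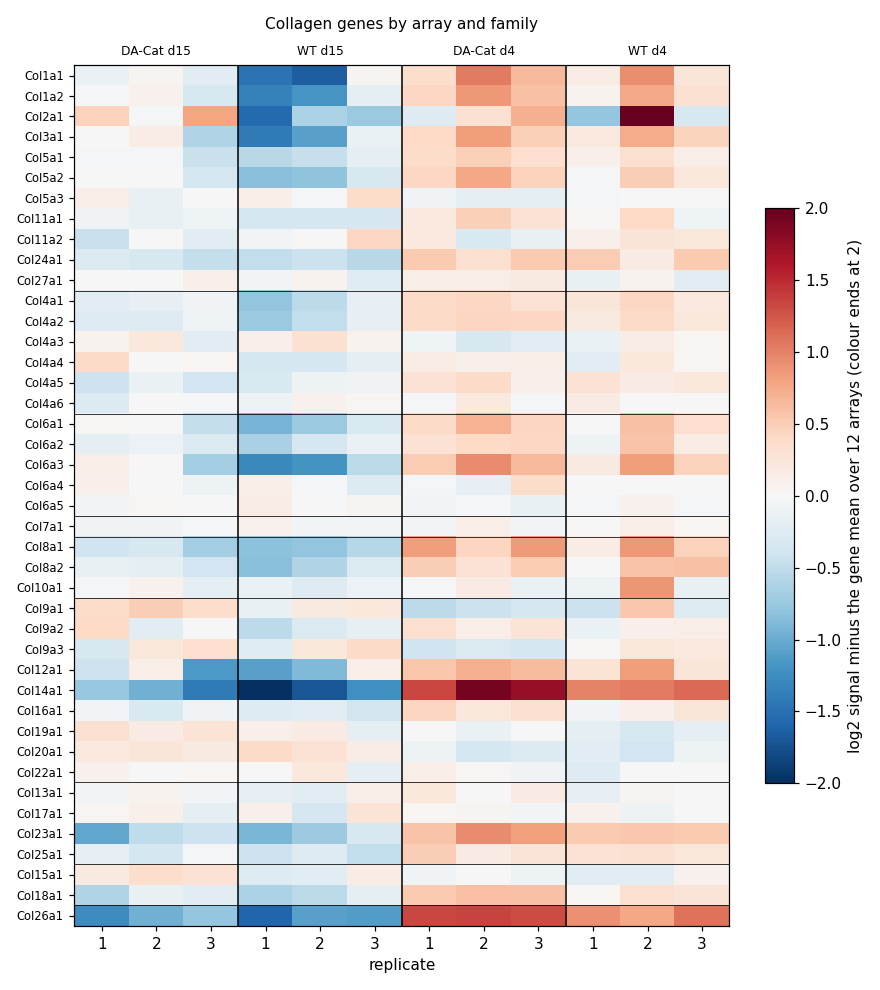
Log2 signal minus the mean of the gene over 12 arrays (colour) for the 42 collagen genes (vertical, by family) on the 12 arrays (horizontal, replicates 1 to 3 of each group). Blue is below and red above the gene's mean; Col14a1 and Col26a1 are blue on all day 15 arrays and red on all day 4 arrays, and for Col1a1, Col1a2 and Col3a1 wild-type replicate 3 at day 15 is paler than replicates 1 and 2.

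At day 4 the Col9a3 levels of the genotypes did not overlap, at 8.93, 9.04 and 8.98 in Olig2cre/DA-Cat, against 9.36, 9.56 and 9.53 in wild type. The difference was -0.50 ± 0.17 (SE, adjusted p = 0.128), the lowest of the 42 at that day, and at day 15 it was -0.04 (adjusted p = 0.925). The other probe sets of Col9a3 also had lower means in Olig2cre/DA-Cat at day 4, with 7.83 in Olig2cre/DA-Cat and 8.61 in wild type on one and 2.93 in Olig2cre/DA-Cat and 3.28 in wild type on the other, near the low end of the scale. Col9a3 was called lower at day 4 in 3 of 19 alternative settings, where its adjusted p ran between 0.00915 and 0.295. Oligodendrocyte markers were lower on the same arrays: 7 of 7 fell at day 4 and 5 of 7 at day 15 in Olig2cre/DA-Cat, with means of 9.28 to 9.47, against 11.56 to 11.71 in wild type, at day 4. Their part in the Col9a3 difference was not tested.

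One wild-type array at day 4, the second replicate, stood apart for Col2a1, Col9a1 and Col10a1. The other chains of type IX collagen did not follow. Col9a2 was at 6.75 on this array, against 6.52 and 6.79 on the other wild-type day 4 arrays, and Col9a3 at 9.56, against 9.36 and 9.53. Col2a1, the main fibre of cartilage, was at 7.19, 6.71 and 7.52 in Olig2cre/DA-Cat, against 5.18, 6.09 and 5.99 in wild type, at day 15. At day 4 it was at 6.47, 7.03 and 7.45 in Olig2cre/DA-Cat, against 5.96, 8.76 and 6.40 in wild type. The genotypes did not overlap at day 15, whereas at day 4 the second wild-type array was the highest of all 12 arrays. The difference was 1.38 ± 0.57 at day 15 (SE, adjusted p = 0.245) and -0.06 at day 4 (adjusted p = 0.965). Between the days it was 0.16 in Olig2cre/DA-Cat (adjusted p = 0.852) and -1.29 in wild type (adjusted p = 0.0886). On the same wild-type day 4 array Col10a1 was at 6.57, against 5.59 and 5.54 on the others, and the cartilage protein Comp at 6.09, against 4.20 and 4.34. Without this array Col2a1 was called higher in Olig2cre/DA-Cat at day 15, with an adjusted p of 0.0341. It was the 1 collagen called there (2.38%, against 2.52% of all genes). A day 4 array is not part of the day 15 difference, so only the shared estimate of the spread changed. Without wild-type replicate 3 at day 15 the adjusted p was 0.298. The mean of 8 cartilage and bone markers was 5.27 on wild-type replicate 2 at day 4 and 4.45 to 5.02 on the others. Skeletal muscle markers varied within every group, from 5.57 to 10.24 in Olig2cre/DA-Cat and 5.30 to 7.05 in wild type at day 15, against 6.12 to 8.84 in Olig2cre/DA-Cat and 5.60 to 7.97 in wild type at day 4. Of the 12 muscle markers 1 was called higher in Olig2cre/DA-Cat at each day. The part of these tissues in the collagen signals was not tested.

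Among the remaining collagens Col4a4 was higher in Olig2cre/DA-Cat by 0.43 at day 15, without overlap of the groups (adjusted p = 0.0664), and by 0.11 at day 4 (adjusted p = 0.626). The other probe sets of Col4a4 went the other way at day 15, at -0.17 and -0.05, and were at -0.06 and 0.09 at day 4. Col15a1 was higher by 0.38 at day 15, also without overlap (adjusted p = 0.0987), and by 0.05 at day 4 (adjusted p = 0.819). Col26a1 was at 0.26 at day 15 and at 0.41 at day 4, where the groups did not overlap (adjusted p = 0.135). None of these passed the test. Col11a2 was the lowest at day 15, at -0.35 (adjusted p = 0.262).

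No gene of the synthesis list or of the breakdown list was called between the genotypes at either day or on average. In the list of receptors and proteoglycans Ddr1, a receptor tyrosine kinase that binds fibrillar collagen and is made by oligodendrocytes, was the 1 called gene. It fell by 0.65 in Olig2cre/DA-Cat at day 15 (adjusted p = 0.00151) and fell by 0.40 at day 4 (adjusted p = 0.022). Its level was 9.17 ± 0.15 in Olig2cre/DA-Cat, against 9.82 ± 0.10 in wild type, at day 15, and 8.88 ± 0.07 in Olig2cre/DA-Cat, against 9.28 ± 0.07 in wild type, at day 4 (SD, n = 3 arrays each). The median over the 19 genes was 0.11 at day 15 and 0.024 at day 4.

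Whether the genotype difference itself changed between the days was tested directly. No collagen was called, where 0.352% of all genes were, and 1 collagen, Col9a1, had an unadjusted p under 0.05 (2.38%, against 10.1% of all genes). Col9a1 was at 0.32 at day 15 and at -0.39 at day 4 (Olig2cre/DA-Cat minus wild type), a change of 0.71 with a 95% interval of 0.11 to 1.30 (adjusted p = 0.413). Its wild-type levels at day 4 were 7.64, 8.60 and 7.82, and the second of these arrays was also the highest of all 12 for Col2a1. The day 4 difference of Col9a1 and the change thus rest in part on that array. Among the collagens called with day in 1 genotype alone, the change was 0.69 for Col1a1 (interval -0.45 to 1.82), 0.61 for Col3a1 (interval -0.28 to 1.51), 0.32 for Col4a4 (interval -0.02 to 0.67) and 0.33 for Col15a1 (interval -0.02 to 0.67). A different size of the day effect in the genotypes was thus not shown for these genes, and the intervals include changes as large as several of the day differences themselves. For Col14a1 the change was 0.01 (interval -0.64 to 0.67) and for Col26a1 -0.15 (interval -0.58 to 0.29).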

How the data were processed

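Per the labels' protocols, RNA was taken from spinal cord tissue cut by hand from cryosections and labelled with biotin, with 1 sample per array. The deposited values are 1 log2 signal per probe set and array; the log2 scale was judged from the values, and the authors' background correction, summarisation and normalization are not given in the sources used here. Of 45101 probe sets 34958 had 1 gene symbol, and the one with the highest mean per gene was kept (18194 genes, no filter on brightness). One mean per group was fitted over all 12 arrays (limma 3.58.1, R 4.3.3), with 8 residual degrees of freedom, 2-sided p-values and Benjamini-Hochberg adjustment over all genes in each of 6 contrasts. All adjusted p-values come from these limma fits. Array data have no read depth, and the number of arrays limits the precision.

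On simulated arrays of 18194 genes the day 4 genotype contrast recovered 72% of 100 genes changed by 0.5 log2 and 100% of 100 changed by 1 log2, with 13 false calls. The simulated noise was independent between genes and arrays, with the residual SD of each gene. The changed genes were drawn at random from all genes, so these rates are not estimates for the collagens. In the real day 4 contrast, differences of 0.61 for Col14a1 and -0.50 for Col9a3 were not called. The members and all lists were chosen with earlier results of these data known. Every collagen is named. Values on every array are given for collagens called between the genotypes, for the 6 with the highest mean signal, and for the 4 highest and 4 lowest wild-type day differences among called collagens (only 2 rose), and for Col2a1 and Col9a1, chosen after their values were seen. Other pathway genes were named by smallest p in each list, with Mrc2 among the 4 of smallest p in wild type. Alternatives were quantile normalization, trend and robust variance, array weights, leaving out the dimmest 30% of genes, the mean of all probe sets, the replicate number as a block, each day alone and each array left out.

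Means of the marker lists not given in the report ran between 11.87 and 12.19 for astrocytes, 8.66 and 9.21 for oligodendrocyte precursors, 6.10 and 6.61 for motor neurons, 7.85 and 8.75 for microglia and macrophages, and 6.60 and 8.17 for the 4 measured of 7 Schwann cell markers.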

Additional observations from a re-analysis of the deposited data

How the results depend on the processing

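No collagen difference changed its sign past the threshold under any alternative tried. When any 1 array was left out, 21 to 27 collagens were called between the days in Olig2cre/DA-Cat (50.0% to 64.3%, against 42.7% to 48.5% of all genes). For wild type 22 to 27 were called (52.4% to 64.3%, against 39.3% to 45.6% of all genes). The genotype calls were less stable. Quantile normalization left 1 collagen called on average over both days (7.26% of all genes were called), and leaving out the dimmest 30% of genes, which removed 10 collagens from the fit, gave 4 (12.5%, against 15.8% of all genes). Array weights gave 10 on average (23.8%, against 16.5% of all genes), 1 at day 15 (2.38%, against 3.76%) and 3 at day 4 (7.14%, against 11.9%), and the day 4 arrays alone gave 2 (4.76%, against 3.56%). The cause was not tested. Leaving out 1 array gave 0 to 10 called collagens on average over both days, 0 to 8 at day 15, 0 at day 4 and 0 for the change of the genotype difference. The highest counts came without wild-type replicate 3 at day 15, with 10 on average (23.8%, against 7.79% of all genes) and 8 at day 15 (19.0%, against 2.5%).

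The titles do not name the replicate numbers as pairs, and they were not taken as pairs. Within a day, same-numbered arrays of the genotypes correlated between 0.015 and 0.297 in their deviations from the group means. Across the days the range was -0.343 to 0.128. Arrays of different numbers were not correlated for comparison, so whether same-numbered arrays of a day belong together cannot be told from these values. With the replicate number as a block 1 collagen, Col9a3, was called lower at day 4 (2.38%, against 3.32% of all genes). On average 3 were called higher (7.14%, against 8.74% called in either direction), and 0 at day 15 (2.75% of all genes). Between the days 25 were called in Olig2cre/DA-Cat (59.5%, against 48.4%) and 24 for wild type (57.1%, against 45.0%).

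Groups of 3 arrays limit all comparisons, and no detection call was used. Col6a5 and Col17a1 lay at the low end of the array scale.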
